A study of Zea mays with 7 samples.

Results

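The 6 genes described here act at successive steps of cytokinin signalling in maize: the cytokinin-activating genes *ZmLOG7a* (*GRMZM2G059392*), *ZmLOG7c* (*GRMZM5G842645*) and the LOG7-like gene *GRMZM2G073634*, the receptor gene *HSF1*/*ZmHK1* (*GRMZM2G151223*), and the type-A response regulator genes *ZmRR2* (*GRMZM2G392101*) and *ABPH1*/*ZmRR3* (*GRMZM2G035688*). They were chosen by gene identifier for their place in the pathway, with earlier results of these data known. They are 6 of the 110451 genes in the count table. RNA-seq was performed on field-grown ear primordia of 3 to 4 mm in the B73 background, an inbred line. There were 4 pools of *Bif3* mutants and 3 pools of wild-type siblings, and the study's methods give each pool as 3 ear primordia and 1 biological replicate. The *Bif3* samples were ears with the mutant appearance, and homozygosity is stated in the study's methods and not in the sample labels. *Bif3* is dominant in the ear and known from a single allele, which carries a tandem duplication at *ZmWUS1*, a maize gene for a WUSCHEL homeodomain transcription factor. The inflorescence meristem of the mutant is enlarged, and the mixture of cells in the pools was not measured. In bulk RNA, fewer cells of a type and less RNA per cell cannot be told apart.

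Cytokinins are adenine-derived hormones that keep shoot meristem cells dividing. LONELY GUY (LOG) enzymes release the active free base from inactive cytokinin nucleotides, so they act at the last step of synthesis. The free hormone binds histidine kinase receptors, and phosphate passes through phosphotransfer proteins to response regulators in the nucleus. Type-B response regulators are transcription factors, while type-A response regulators are induced by cytokinin and restrain the pathway. Mutations of the rice gene *LOG* and of maize *ABPH1* are known for opposite effects on the shoot meristem, smaller in the first and larger in the second.

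*ZmLOG7a* and *ZmLOG7c* are close relatives, and reads that fit both may have been dropped or split in the counting. The study's in situ hybridization probes for these genes were cloned with the primer pairs below, written from the 5′ end, and they are shown because they are the sequences by which the study addressed each gene of the pair. Whether they tell the transcripts apart was not tested. They were not used in the RNA-seq.
ZmLOG7a forward primer: agctgcgatggcaatggac
ZmLOG7a reverse primer: aatctggggttagcgtaggtagg
ZmLOG7c forward primer: gatcggcagctaaacaagcac
ZmLOG7c reverse primer: gtcagcaactggtcagagaagg

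Total counts were between 42481699 and 50824983 in the *Bif3* pools and between 41720131 and 56057512 in the wild-type pools. Levels are given as CPM, which is counts scaled to a common library size, after correction of the sizes by the TMM method. The detection limit was set at 3 counts, and these corresponded to between 0.0540 and 0.0719 CPM. CPM values are not divided by transcript length and were compared between pools, not between genes. *ZmWUS1* (*GRMZM2G047448*) followed the labels, with 4.31, 5.13, 3.82 and 12.8 CPM in *Bif3* and 0.551, 0.324 and 0.320 CPM in wild-type. The summed level of 10 ear meristem markers was between 985 and 1221 CPM in *Bif3* and between 834 and 1076 CPM in wild-type, highest in *Bif3* replicate 4. The sum of 6 green leaf genes was between 25.3 and 47.1 CPM in *Bif3* and between 26.8 and 31.5 CPM in wild-type. Single genes made up much of each sum, KN1 at 486 to 617 CPM and PPDK at 16.9 to 39.1 CPM in *Bif3*. In wild-type they had 418 to 498 CPM and 15.1 to 19.2 CPM. The leaf gene NADP-ME was lower in *Bif3*, at 6.17 to 7.63 CPM against 10.3 to 12.0 CPM in wild-type. The RuBisCO small subunit identifiers had at most 1.12 CPM in any pool. The identifier of the leaf gene for PEPC had no count in any pool, like 65090 of the 110451 in the table. Whether it could be counted here is unknown. The part of these markers in the results below was not tested. Of 40650 genes tested, 1380 were higher and 243 lower in *Bif3* in edgeR's quasi-likelihood test, at the limits the study set, which are p under 0.05, adjusted p under 0.1 and a fold change over 1.5. The study names edgeR but not the form of its test. Leaving out *Bif3* replicate 2 gave 713 higher and 114 lower, leaving out wild-type replicate 3 gave 687 and 137, and leaving out *Bif3* replicate 1 gave 142 lower.

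Of the 6 cytokinin genes, 2 of the 3 activation genes were lower in *Bif3*, both type-A response regulators were higher, and the receptor and *ZmLOG7a* were not past the threshold. All 6 entered the test, each with at least 11 counts in every pool. The background was 3.99% of tested genes past the threshold in either direction, 3.39% higher and 0.598% lower. Among the 19707 genes whose mean log2 CPM was 1 or more, called expressed genes below, to which 5 of the 6 belong, it was 5.33%, with 4.64% higher and 0.695% lower. Because the 6 genes were chosen with earlier results of these data known, the background gives a scale and no test of enrichment. The plot of CPM by pool shows the levels from which these calls come.

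**Figure D1:**
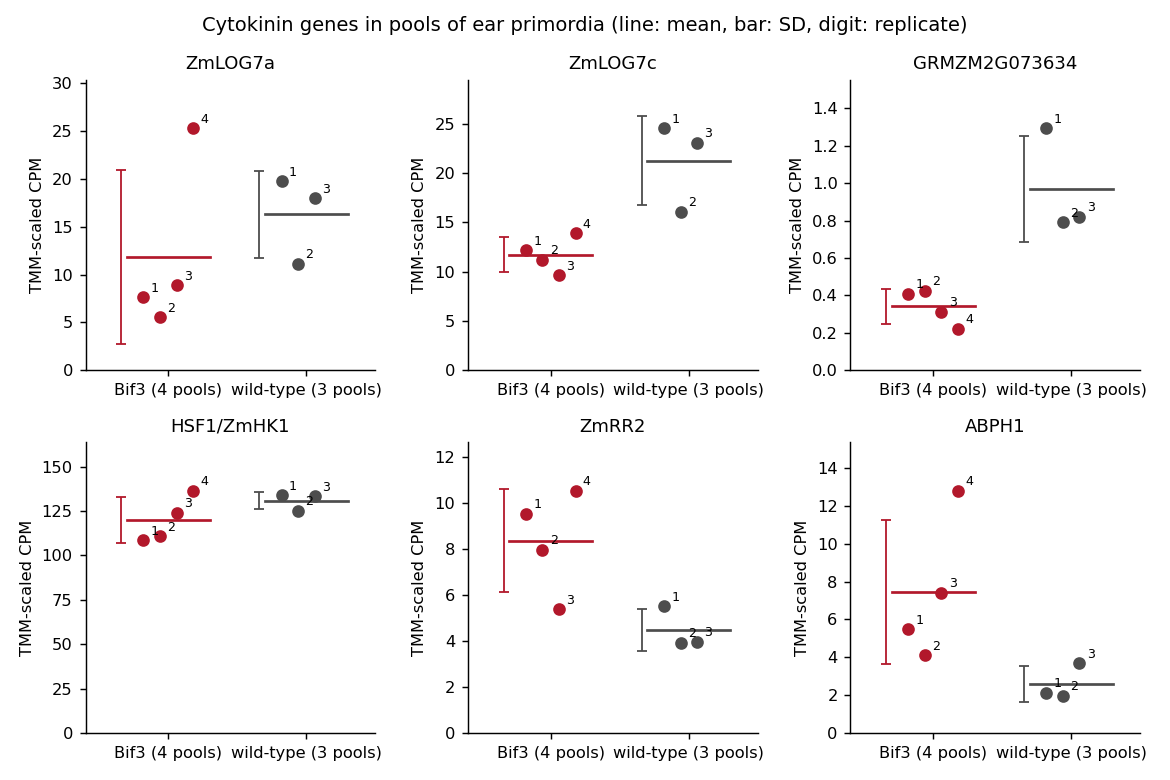
TMM-scaled CPM (vertical axes, from 0) of the 6 cytokinin genes in each pool of ear primordia, with *Bif3* (4 pools) left of wild-type (3 pools). Points are pools with their replicate number, horizontal lines are means and bars are SD. The pools of the genotypes are apart for *ZmLOG7c*, *GRMZM2G073634* and *ABPH1*, and the point of *Bif3* replicate 4 for *ZmLOG7a*, at 25.3 CPM, lies above every wild-type pool.

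*ZmLOG7c*, a gene for a LOG enzyme, was lower in *Bif3*. It had 12.2, 11.2, 9.64 and 13.9 CPM in the *Bif3* pools, against 24.6, 16.1 and 23.1 CPM in the wild-type pools. Every *Bif3* pool lay below every wild-type pool, which held in either direction for 16.1% of all tested genes and for 23.1% of the expressed genes. Mean levels were 11.7 ± 1.79 CPM in *Bif3* (SD, n = 4) and 21.3 ± 4.52 CPM in wild-type (SD, n = 3). The log2 fold change was -0.85 (SE 0.16, Benjamini-Hochberg adjusted p = 0.0152 in the edgeR fit), wild-type being 1.81-fold higher. Mean CPM was also compared by a two-sided exact permutation test, with p = 0.0286, the smallest that 4 pools against 3 allow. Of the 6 genes it was one of a pair, with *HSF1*, for which none of the 17 alternatives changed the call.

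*GRMZM2G073634*, the LOG7-like gene, was also lower in *Bif3*, at a low level. Its counts were 18, 20, 14 and 11 in the *Bif3* pools, against 54, 44 and 41 in the wild-type pools. Scaled to library size it had 0.408, 0.424, 0.312 and 0.221 CPM in *Bif3* and 1.29, 0.792 and 0.821 CPM in wild-type. The pools did not overlap, and the lowest of all was *Bif3* replicate 4, the pool in which the other LOG genes were highest among the mutants. The log2 fold change was -1.49 (SE 0.33, Benjamini-Hochberg adjusted p = 0.0338 in the edgeR fit), and wild-type was 2.82-fold higher. The two-sided exact permutation test of mean CPM gave p = 0.0286, the smallest possible. Without wild-type replicate 1, the highest pool, the log2 fold change was -1.24 and the gene was no longer past the threshold (adjusted p = 0.101 from the same edgeR test).

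*ZmLOG7a*, the third LOG gene, did not pass the test over all 7 pools. It had 7.62, 5.52, 8.91 and 25.3 CPM in the *Bif3* pools, against 19.8, 11.1 and 18.0 CPM in the wild-type pools. In *Bif3* replicates 1 to 3 it was below every wild-type pool, while *Bif3* replicate 4 was the highest of all pools. The mean was 11.8 ± 9.09 CPM in *Bif3* (SD, n = 4; coefficient of variation 76.8%) and 16.3 ± 4.56 CPM in wild-type (SD, n = 3; 28.0%). The log2 fold change was -0.46 (95% interval -1.36 to 0.45, Benjamini-Hochberg adjusted p = 0.593 in the edgeR fit), and the two-sided exact permutation test gave p = 0.457. This call turned on a single library. Without *Bif3* replicate 4 the log2 fold change was -1.15 (SE 0.23, adjusted p = 0.0350 from the same edgeR test, past the threshold), the largest move that leaving out a pool gave for any of the 6 genes.

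*HSF1*/*ZmHK1* encodes a cytokinin receptor, and dominant alleles of *Hairy Sheath Frond1* that make it hypersensitive to the hormone alter leaf patterning. It had 108, 111, 124 and 136 CPM in the *Bif3* pools, against 134, 125 and 133 CPM in the wild-type pools. The genotypes overlapped, with *Bif3* replicate 4 the highest of all pools and *Bif3* replicates 1 to 3 below every wild-type pool, the same split as in *ZmLOG7a* over a much narrower range. The log2 fold change was -0.13 (95% interval -0.32 to 0.07, Benjamini-Hochberg adjusted p = 0.496 in the edgeR fit), and the two-sided exact permutation test gave p = 0.286. The interval leaves room for a decrease of up to 0.32 on the log2 scale, which is under the fold limit of the threshold. The spread within *Bif3* was small, with a coefficient of variation of 10.8%, against 3.69% in wild-type.

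*ZmRR2*, a type-A response regulator gene, was higher in *Bif3* by edgeR's test. It had 9.53, 7.98, 5.38 and 10.5 CPM in the *Bif3* pools, against 5.51, 3.92 and 3.96 CPM in the wild-type pools. *Bif3* replicate 3 lay just below wild-type replicate 1, so the genotypes overlapped, and the other *Bif3* pools were above all wild-type pools. The means were 8.35 ± 2.24 CPM in *Bif3* (SD, n = 4) and 4.47 ± 0.904 CPM in wild-type (SD, n = 3). The log2 fold change was 0.91 (SE 0.22, Benjamini-Hochberg adjusted p = 0.0488 in the edgeR fit), which is 1.87-fold. The two-sided exact permutation test gave p = 0.0857. Its direction was kept under every alternative, but the call was lost without *Bif3* replicate 1, 2 or 4 and without wild-type replicate 2 or 3, with adjusted p from 0.109 to 0.179 in edgeR's test and log2 fold changes from 0.77 to 0.93.

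*ABPH1*/*ZmRR3*, whose loss enlarges the shoot meristem and changes leaf arrangement, was the cytokinin gene with the largest increase of the 6. It had 5.49, 4.12, 7.41 and 12.8 CPM in the *Bif3* pools, against 2.13, 1.96 and 3.68 CPM in the wild-type pools. The *Bif3* pools were all above the wild-type pools, although *Bif3* replicate 2 and wild-type replicate 3 were close. The means were 7.46 ± 3.81 CPM in *Bif3* (SD, n = 4) and 2.59 ± 0.949 CPM in wild-type (SD, n = 3). The log2 fold change was 1.52 (SE 0.36, Benjamini-Hochberg adjusted p = 0.0424 in the edgeR fit), which is 2.87-fold, and the two-sided exact permutation test gave p = 0.0571. The call was lost without wild-type replicate 1 (log2 fold change 1.41, adjusted p = 0.129 from the same edgeR test) and without wild-type replicate 2 (1.35, adjusted p = 0.111). With *Bif3* replicate 4 left out the log2 fold change was 1.13 and the gene remained past the threshold.

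**Figure D2:**
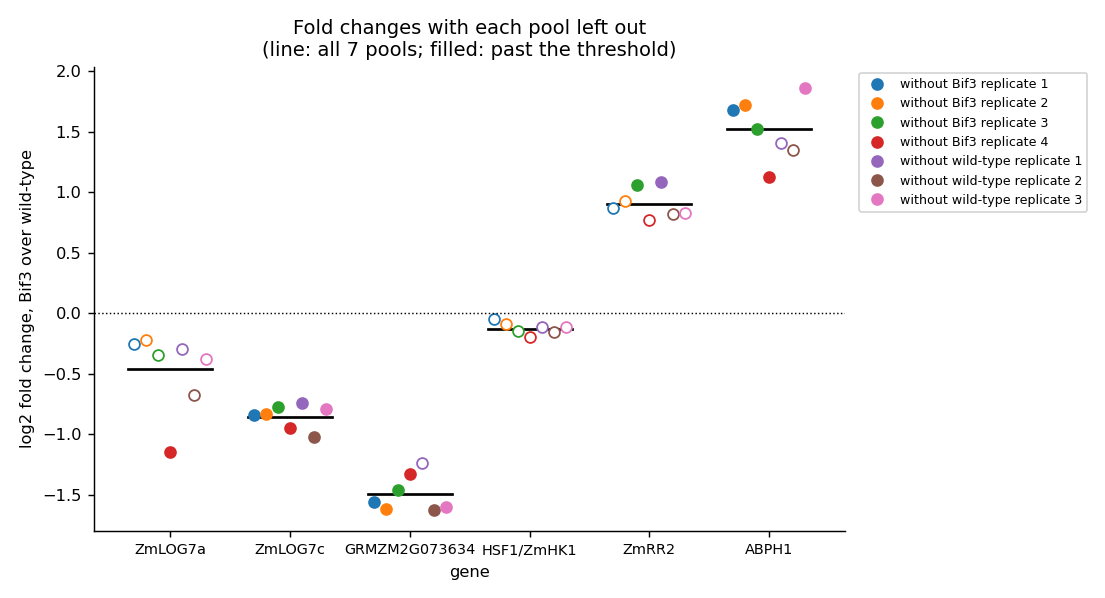
Log2 fold change, *Bif3* over wild-type (vertical axis), of the 6 cytokinin genes (horizontal axis) when each pool was left out in turn, with colours for the pool left out. Black lines are the values with all 7 pools and filled points are past the threshold. The point of *ZmLOG7a* without *Bif3* replicate 4 stands at -1.15, far from its line at -0.46, while *ZmLOG7c* stays past the threshold throughout.

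The pools of the mutant differed among themselves, and their order was not the same for all 6 genes. *Bif3* replicate 4 had the highest mutant level of *ZmLOG7a*, *ZmLOG7c*, *HSF1*, *ZmRR2* and *ABPH1*, and the lowest of *GRMZM2G073634*. The same pool had the highest level of *ZmWUS1* and of *ZmCLE7* (*GRMZM2G372364*), which encodes a CLAVATA3-like peptide and had 2.38, 5.03, 2.86 and 17.6 CPM in *Bif3* against 1.08, 0.630 and 0.841 CPM in wild-type. The part of this pool's *ZmWUS1* level in its cytokinin gene levels was not tested.

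Set against the mean of the other *Bif3* pools, *ZmLOG7a* was 3.44-fold as high in *Bif3* replicate 4, a ratio reached by 0.0355% of the 19707 expressed genes. The ratio for *ABPH1* was 2.26, reached by 0.173% of these genes. That of *ZmWUS1* was 2.90 and that of *ZmCLE7* 5.13. For *ZmRR2* the ratio was 1.38, for *ZmLOG7c* 1.26 and for *HSF1* 1.19, values that 3.18%, 6.63% and 11.7% of the genes reached. *GRMZM2G073634* was at 0.580 of the mean of the other mutant pools, from 11 counts against 18, 20 and 14. At such low counts a change was not set apart from counting error.

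The rank of *Bif3* replicate 3 among the mutant pools differed between the response regulators. It had the lowest mutant level of *ZmRR2*, 0.576 of the mean of the other *Bif3* pools, and also the lowest of *ZmLOG7c*, at 0.775. In *ABPH1* it was the second highest, at 0.992 of that mean. *Bif3* replicate 2, in turn, was the lowest mutant pool for *ZmLOG7a* and *ABPH1*, at 0.396 and 0.480 of the mean of the others. These means include *Bif3* replicate 4, at 25.3 CPM for *ZmLOG7a* and 12.8 CPM for *ABPH1*, which lowers the ratios of the other pools. The next lowest mutant pool was replicate 1 for both, at 7.62 CPM against 5.52 CPM and at 5.49 CPM against 4.12 CPM.

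**Figure D3:**
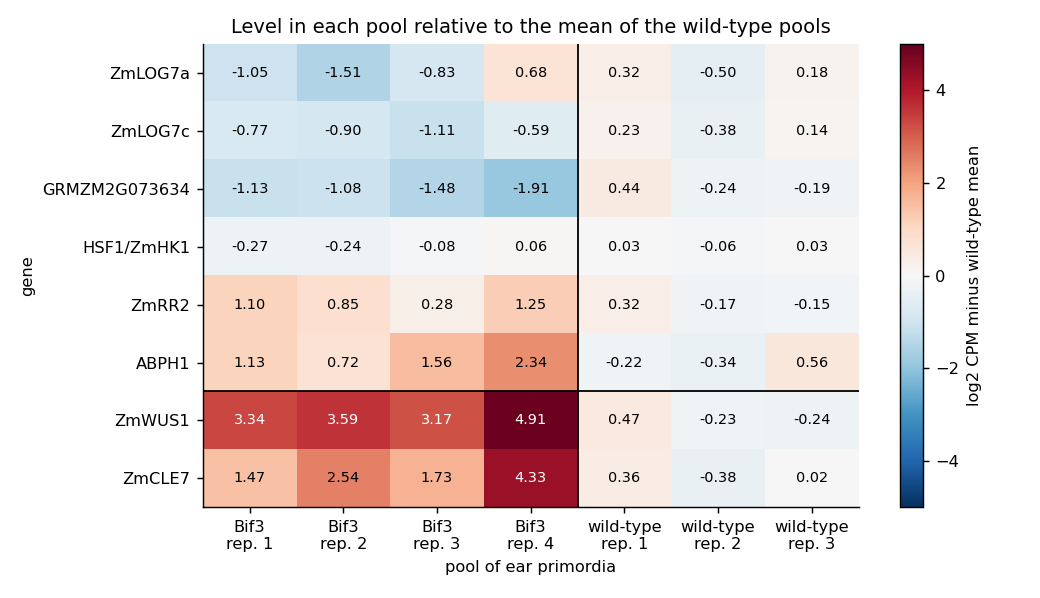
Log2 CPM of each gene (rows) in each pool (columns, *Bif3* left of wild-type) minus the mean of the wild-type pools, printed in each cell and given by colour, with *ZmWUS1* and *ZmCLE7* below the 6 cytokinin genes. In *Bif3* replicate 4, *ZmLOG7a* is at 0.68 and *ABPH1* at 2.34, while *ZmLOG7c* and *GRMZM2G073634* are below 0 in every *Bif3* pool.

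The ratio of counts of a pair of genes within a pool does not depend on library size. For *ZmLOG7c* over *ZmLOG7a* the log2 ratio was 0.68, 1.02, 0.11 and -0.86 in the *Bif3* pools, against 0.31, 0.53 and 0.36 in the wild-type pools. The wild-type pools lay within a narrow band and the mutant pools on both sides of it. The difference in mean log2 ratio was -0.16 (standard error 0.49), and the two-sided exact permutation test gave p = 0.8, also after Benjamini-Hochberg adjustment over the 3 ratios tested. Without *Bif3* replicate 4 it turned to 0.20.

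For *GRMZM2G073634* over *ZmLOG7c* the log2 ratio was -4.86, -4.69, -4.90 and -5.91 in *Bif3*, against -4.24, -4.33 and -4.80 in wild-type. For *ABPH1* over *ZmRR2* it was -0.79, -0.95, 0.46 and 0.28 in *Bif3*, against -1.36, -0.997 and -0.11 in wild-type. In both ratios the genotypes overlapped. The difference in mean log2 ratio was -0.64 (standard error 0.36) for the LOG genes and 0.57 (standard error 0.53) for the response regulators, and two-sided exact permutation tests gave p = 0.143 and p = 0.286, both 0.429 after adjustment over the 3 ratios. Unequal changes within a role were thus not separable from the spread between pools, which does not show that the genes changed equally.

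**Figure D4:**
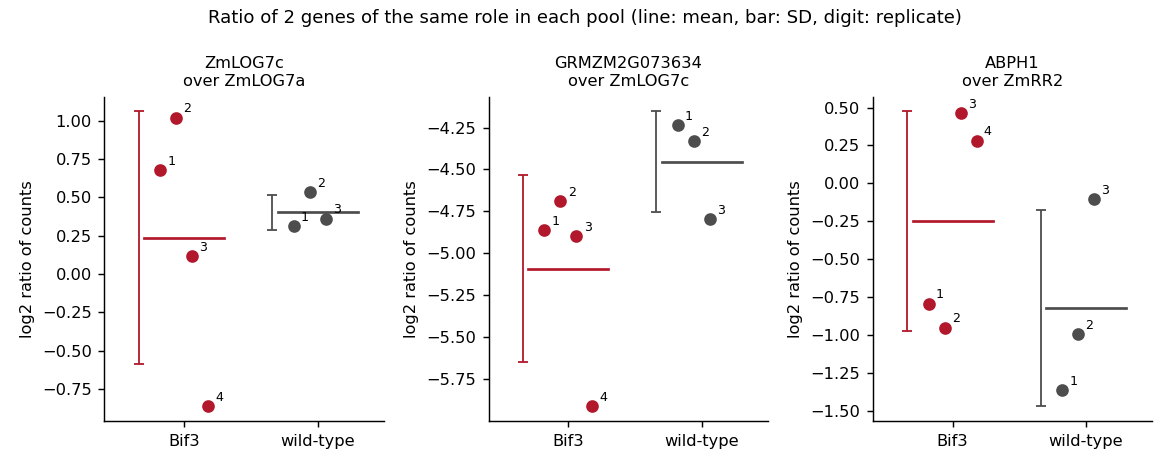
Log2 ratio of the counts of a pair of genes of the same role in each pool (vertical axes), with *Bif3* left of wild-type; points are pools with their replicate number, lines are means and bars are SD. The ratio of *ZmLOG7c* over *ZmLOG7a* is at -0.86 in *Bif3* replicate 4 and between 0.31 and 0.53 in wild-type.

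The likeness of the patterns over the 7 pools was measured as the root-mean-square difference of log2 CPM, after each gene was centred on its own mean. The points of every such value share the same 7 libraries and their depths. The distance includes the difference between genotypes, so the direction of a near gene in *Bif3* largely follows from how it was chosen. The 2 genes nearest to *ZmLOG7c* were *GRMZM2G077989* (0.108) and *GRMZM2G101125* (0.147), both also lower in *Bif3*. For *GRMZM2G073634* they were *GRMZM2G581240* (0.212) and *GRMZM2G009653* (0.252), both lower, and *ZmLOG7c* was at 0.463, with 46 of 19707 genes nearer to *GRMZM2G073634* and 8161 nearer to *ZmLOG7c*. *ZmLOG7a* had a remorin gene, *GRMZM2G004511* (0.288), and *GRMZM2G107076* (0.309) as its nearest, and neither passed the threshold. Its distance to *ZmLOG7c* was 0.547, with 150 genes nearer to *ZmLOG7a* and 14380 nearer to *ZmLOG7c*.

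The nearest genes to *HSF1*, *GRMZM2G024293* (0.0239) and *GRMZM2G074805* (0.0262), had log2 fold changes of -0.11 and -0.15 and did not pass the threshold. *ZmRR2* had *GRMZM2G045690* (0.108) and *GRMZM2G119471* (0.110) as its nearest, of which the first was higher in *Bif3*. *ABPH1* had *GRMZM2G024099* (0.310), higher in *Bif3*, and *GRMZM2G041714* (0.313), which did not pass the threshold. *ABPH1* and *ZmRR2* were 0.647 apart, with 595 genes nearer to *ABPH1* and 16170 nearer to *ZmRR2*.

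A search of gene symbols and synonyms for cytokinin genes found no LOG gene, missing also those described above, so other LOG genes were not examined. The search gave 36 further genes of the pathway, of which 33 had enough counts to be tested. Of these, 0 were higher and 1 was lower in *Bif3* by edgeR's quasi-likelihood test, beside the background of 3.99%. Their median log2 fold change was 0.02, against -0.01 over all tested genes, with 18 values above 0 and 15 below. At an unadjusted p under 0.05 there were 6 of 33 (18.2%), near the 17.6% of all tested genes. DESeq2 called 2 higher and 1 lower of the 28 to which it gave an adjusted p (10.7%), against 6.45% higher and 1.15% lower (7.61% in all) of its 27204 such genes. Many of the 33 were counted at low levels, and 22 were among the expressed genes.

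None of the 3 synthesis genes and 1 of the breakdown genes passed the threshold. The most counted synthesis gene, the isopentenyltransferase gene *IPT1* (*GRMZM2G097258*), had a mean of 16.5 ± 0.351 CPM in *Bif3* and 16.9 ± 1.08 CPM in wild-type (SD, n = 4 and 3; log2 fold change -0.03). Of 11 gene identifiers for cytokinin oxidases, enzymes that degrade the hormone, 2 belong to the same named gene, *CKX8*, and 9 were tested. *CKX10* (*GRMZM2G348452*) was the most counted, with 19.6 ± 2.25 CPM in *Bif3* and 16.5 ± 5.32 CPM in wild-type (log2 fold change 0.25, not past the threshold).

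The single lower gene was the cytokinin oxidase gene *CKX5* (*GRMZM2G325612*), with 7, 1, 0 and 6 counts in the *Bif3* pools against 26, 7 and 40 counts in the wild-type pools. *Bif3* replicate 1 and wild-type replicate 2 had the same count, and the pools overlapped in CPM. Its log2 fold change was -2.72 (SE 0.79, Benjamini-Hochberg adjusted p = 0.0898 in the edgeR fit), and the call held in 1 of the 7 fits with a pool left out, the one without wild-type replicate 2. Both genes for zeatin glucosyltransferases, which store the hormone as a conjugate, were near the detection limit, and the more counted one, *CISZOG2* (*GRMZM2G110511*), had 4, 2, 3 and 6 counts in *Bif3* and 4, 0 and 1 counts in wild-type.

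Of 5 further receptor kinase genes and 3 phosphotransfer genes, 0 passed the threshold in edgeR's test and 0 in DESeq2, and 1 of the 8 had an unadjusted p under 0.05, a limit met by 17.6% of all tested genes and 25.9% of the expressed genes. The receptor kinase gene *hk2* (*GRMZM2G471529*) had 112 ± 9.38 CPM in *Bif3* and 111 ± 10.1 CPM in wild-type (SD, n = 4 and 3; log2 fold change 0.02). *HK3* (*GRMZM2G158252*), named here after its values were seen, had 53.1, 56.7, 59.7 and 47.5 CPM in *Bif3*, against 62.7, 67.3 and 72.8 CPM in wild-type. Its pools did not overlap, as was so for 23.1% of the expressed genes. The log2 fold change of -0.32 (SE 0.09, Benjamini-Hochberg adjusted p = 0.0893 in the edgeR fit) missed only the fold limit. Such a miss was common, since 670 genes were lower without that limit and 243 with it. The phosphotransfer gene *HP1* (*GRMZM2G016439*) had 40.1 ± 2.03 CPM in *Bif3* and 37.7 ± 5.71 CPM in wild-type (log2 fold change 0.09).

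The list held 12 other response regulator identifiers, of which 4 belong to the same named gene, *ZmRR5*. Of the 12, 11 were tested and 0 passed the threshold in edgeR's quasi-likelihood test. In that test 3 had an unadjusted p under 0.05, among them the *ZmRR5* identifier *GRMZM2G032496*, beside the same 17.6% of all tested and 25.9% of expressed genes. The most counted of the 12, the type-B gene *ZmRR9* (*GRMZM2G060485*), had 94.4 ± 11.8 CPM in *Bif3* and 107 ± 4.83 CPM in wild-type (SD, n = 4 and 3; log2 fold change -0.18). A pair of type-A genes, named here after their values were seen, missed the adjusted p narrowly. *ZmRR7* (*GRMZM2G096171*) had 31.7, 29.7, 14.9 and 17.4 CPM in the *Bif3* pools, against 14.4, 14.9 and 12.8 CPM in the wild-type pools (log2 fold change 0.74, adjusted p = 0.109 from edgeR's test). It was high in *Bif3* replicates 1 and 2 and near the wild-type level in the others. *ZmRR4* (*GRMZM2G319187*) had 15.7, 17.2, 11.9 and 25.4 CPM in *Bif3*, against 12.6, 9.29 and 10.3 CPM in wild-type (log2 fold change 0.71, adjusted p = 0.101 from edgeR's test), with *Bif3* replicate 3 below wild-type replicate 1 as in *ZmRR2*. DESeq2 called both of these genes higher.

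**Figure D5:**
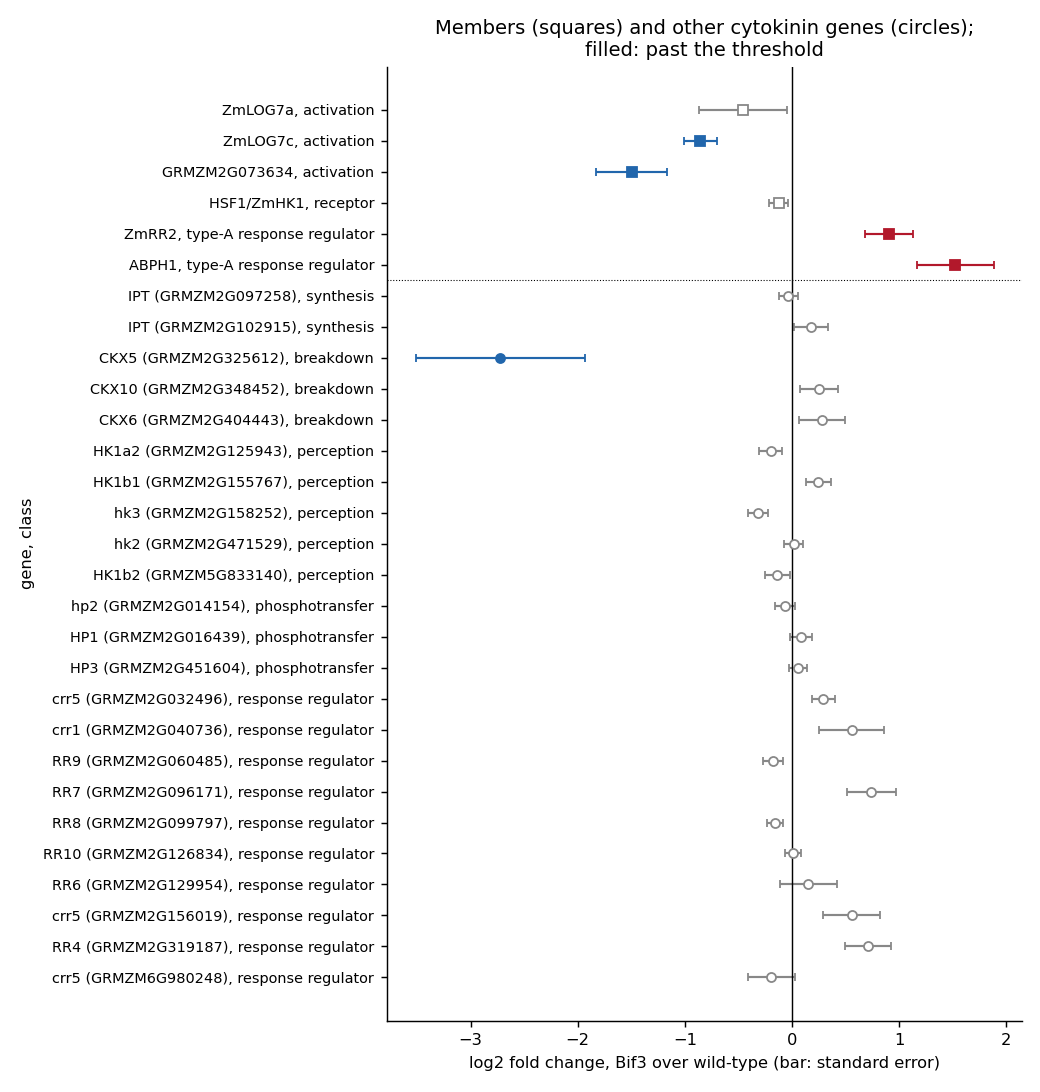
Log2 fold change, *Bif3* over wild-type (horizontal axis), of the 6 cytokinin genes (squares, top) and of *CKX5* and the 22 other pathway genes whose mean log2 CPM was 1 or more (circles), with bars for the standard error and filled symbols past the threshold. Below the dotted line *CKX5*, at -2.72, is the single filled symbol, and *ZmRR7* and *ZmRR4* lie at 0.74 and 0.71.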

How the data were processed

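Ear primordia of *Bif3* (4 pools) and wild-type (3 pools) were compared by RNA-seq. The authors used Trimmomatic, then HISAT with B73 v3 as reference, and deposited the whole-number HTSeq-count read counts per gene without normalization. The submitters' processing notes instead list TopHat2 2.1.1 and Cuffdiff, so the aligner behind the counts is uncertain. Libraries were stranded, but how HTSeq-count treated strand and multiply mapped reads is not given in the sources used here, so counts of near-identical paralogs and overlapping genes are uncertain.

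Genotypes and replicate numbers came from the labels. Genes with 2 or more counts over all pools were tested in R 4.3.3 with edgeR 4.0.16 (TMM scaling, quasi-likelihood fit in the form of earlier versions, genotype only), with Benjamini-Hochberg adjustment over 40650 genes. Standard errors were derived from the F statistic, and 95% intervals from a t distribution with the residual and prior degrees of freedom. Single genes were also compared by exact permutation over 35 splits of the pools, and 3 ratios were formed with 0.5 added to each count. Depth was at least 41720131 counts per pool, and the detection limit of 3 counts covers counting error only. Identifiers were matched to RefSeq's table of NAM-5.0, in which 19075 identifiers and all 6 genes matched, and no coordinates were taken from it. Gene names came from that table or from the study. The table gave no name for the LOG genes and not the name *HSF1*, and *ZmLOG7a* and *ZmLOG7c* are the study's names.

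The genes and lists were chosen with earlier results of these data known. Named with values were the 6 genes, *ZmWUS1*, *ZmCLE7*, pathway genes past the threshold, the most counted gene of each pathway class, and for each of the 6 genes the 2 most alike in pattern. Markers were KN1, RA1, RA3, BA1, UB2, UB3, ZYB15, TD1, FEA2 and *GRMZM2G307588* for the ear meristem, of which TD1 was higher and RA3 and BA1 lower in *Bif3*, and PEPC, NADP-ME, PPDK, RuBisCO small subunit and *GRMZM2G121878* for leaf, of which NADP-ME was lower. Alternatives were other scalings, edgeR 4's own fit, DESeq2 1.42.0, limma-voom (limma 3.58.1), other filters, each pool left out, a replicate block and other thresholds. The code was tested on simulated data.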

Additional observations from a re-analysis of the deposited data

Results flagged for a closer look

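Among the 19 named genes whose 4 *Bif3* pools were examined for a sample far from the rest, *ZmWUS1* had 1. Its level in *Bif3* replicate 4, 12.8 CPM, was separated from the next pool by 0.854 of the whole range of the *Bif3* pools, above Dixon's limit at the 95% level for 4 samples. Chance marks about 1 in 20 such groups. The wild-type group, with 3 pools, was not examined in this way. *ZmLOG7a* and *ZmCLE7*, each highest in the same pool, fell just under the limit.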

How the results depend on the processing

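*ZmLOG7c* kept its call, and *HSF1* stayed without one, under all 17 alternatives. The calls of *GRMZM2G073634*, *ZmRR2* and *ABPH1* were lost only where a pool was left out, with log2 fold changes from -1.62 to -1.24, from 0.77 to 1.08 and from 1.13 to 1.87, and *ZmLOG7a* ranged from -1.15 to -0.22. Over these fits 0 to 2 of the 6 genes were higher and 1 to 3 lower, 0 being without wild-type replicate 2. The further pathway genes had 0 to 2 higher and 0 to 1 lower, all tested genes 687 to 1817 higher and 114 to 327 lower, and the log2 ratio of *ZmLOG7c* over *ZmLOG7a* ranged from -0.42 to 0.20. Among the further pathway genes, library size alone gave 1 higher (*ZmRR4*) and DESeq2 2 higher, and edgeR 4's fit, limma-voom, the filter on low counts and an adjusted p under 0.05 each gave 0 lower. No limit on fold change gave 2 lower, and 670 lower over all genes, while an adjusted p under 0.05 gave 891 higher and 137 lower. The causes of these moves were not tested, apart from the thresholds, which act by construction.

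Whether the replicate numbers pair the pools is not settled. Deviations from the group means correlated at -0.0054, 0.49 and 0.27 for numbers 1, 2 and 3. The check required over 0.1 in each, which number 1 did not reach, so the main fit used genotype only. The value for number 2 was the highest of all pairs of a *Bif3* and a wild-type pool. Pairs of unlike number ranged from -0.38 to 0.27, the top one being *Bif3* replicate 4 with wild-type replicate 3. The value for number 3 was thus no higher than that of a pair with unlike numbers. Without a block, the fit that left out *Bif3* replicate 4 gave 975 genes higher and 191 lower. In a fit with the replicate number as a block, *Bif3* replicate 4 has no partner and so does not count. The block fit gave 1994 genes higher and 394 lower, and -1.14 for *ZmLOG7a* (adjusted p = 2.71e-05 from edgeR). It also gave 1 further pathway gene higher (*ZmRR7*) and 0.20 for the ratio of *ZmLOG7c* over *ZmLOG7a*. It changed no call of the other 5 genes. The block fit leaves few residual degrees of freedom and assumes a pairing that is not settled. Its small adjusted p for *ZmLOG7a* is therefore no firmer than that pairing.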
